A study of Mus musculus with 9 samples.

Results

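The unfolded protein and ATF4 stress response was followed through 33 genes, taken as the rows of the deposited gene table that carry their symbols, out of 24493 genes in that table. All 33 were found. They were sorted by role into 6 sensors and transcription factors, 14 chaperones and folding enzymes of the endoplasmic reticulum (ER), 7 genes of ER-associated degradation (ERAD) and 6 targets of the transcription factors ATF4 and CHOP. The cells were mouse pancreatic tumor cells (C57BL/6 genetic background) kept untreated in culture, in DMEM with fetal serum. The material was labelled total RNA. The groups were 3 libraries of the parental line and 3 libraries each of escape e1 and escape e2 (here e1 and e2), lines derived from it that the series describes as immunotherapy-resistant. No treatment or added gene is named that would set the groups apart, and whether a line is a single clone is not given. Separate cultures are not stated in the labels for the libraries of a group. The p-values therefore measure the spread between these libraries, which may be technical. With bulk RNA, fewer cells of a type and less RNA per cell cannot be told apart.

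Proteins that enter the ER are folded there by chaperones, and misfolded ones are sent back to the cytosol for destruction. When unfolded proteins build up, IRE1 (encoded by Ern1), PERK (Eif2ak3) and ATF6 sense them: IRE1 splices the Xbp1 mRNA, ATF6 is cut to release a transcription factor, and PERK phosphorylates the translation factor eIF2alpha, which lowers protein synthesis while favouring translation of ATF4. XBP1 and ATF6 raise chaperone and ERAD genes, whereas ATF4 raises amino acid synthesis genes and CHOP (Ddit3). Pancreatic secretory cells are known for a heavy load on this system. Splicing of Xbp1, cutting of ATF6 and translation of Atf4 are not read out by the gene-level RNA values used here.

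The DNA elements through which these factors act were looked for in RefSeq promoter windows (build GRCm38.p6), each 250 bases before to 50 bases after a transcript start, on both strands. Windows were found for 29 of the 33 genes, all but Atf6, Derl1, Hyou1 and Manf. The ER stress response element (ERSE), known to be bound by ATF6 and XBP1 with NF-Y, was searched as CCAAT, then 9 bases of any kind, then CCACG. It was present in 9 of the 29 genes (31.0%), against 37 of 27025 genes with a window overall (0.137%). The overall counts here and below include the members. The 33 genes were listed for their known part in this response, so these shares are a description and were not tested. These 9 were Hspa5, Hsp90b1, Calr, Canx, Pdia6, Dnajc3, Creld2, Syvn1 and Derl3. All their matches are shown, 5′ to 3′ on the gene's strand, because they link most of the abundant chaperones. Capitals mark the element with its spacer, and on the opposite strand it begins with CGTGG and ends with ATTGG.
Hspa5, chr2:34772015-34772053, plus strand: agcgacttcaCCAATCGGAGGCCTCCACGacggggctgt
Hsp90b1, chr10:86705628-86705666, minus strand: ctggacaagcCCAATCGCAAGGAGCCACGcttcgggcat
Hsp90b1, chr10:86705523-86705561, minus strand: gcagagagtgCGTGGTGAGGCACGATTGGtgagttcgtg
Calr, chr8:84847065-84847103, minus strand: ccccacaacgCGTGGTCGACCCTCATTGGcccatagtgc
Canx, chr11:50325790-50325828, minus strand: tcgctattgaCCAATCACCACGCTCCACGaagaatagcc
Pdia6, chr12:17266481-17266519, plus strand: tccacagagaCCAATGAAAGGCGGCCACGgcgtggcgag
Dnajc3, chr14:118937817-118937855, plus strand: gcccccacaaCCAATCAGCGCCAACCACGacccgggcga
Creld2, chr15:88819510-88819548, plus strand: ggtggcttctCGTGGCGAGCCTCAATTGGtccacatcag
Syvn1, chr19:6046522-6046560, plus strand: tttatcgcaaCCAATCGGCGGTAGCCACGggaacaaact
Derl3, chr10:75893232-75893270, plus strand: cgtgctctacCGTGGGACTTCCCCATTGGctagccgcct

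The C/EBP-ATF response element, through which ATF4 acts with C/EBP partners, was searched as TGATGNAA. It was present in 4 of the 29 genes (13.8%), Chac1, Trib3, Asns and Herpud1, against 1219 of 27025 genes overall (4.51%). The ERSE-II element, searched as ATTGG, any base, then CCACG, was present in Herpud1 and Dnajb11 (2 of 29), against 12 genes overall (0.0444%). The core of the XBP1-bound unfolded protein response element, searched as TGACGTGG, matched none of the 29 and 0.714% of all genes. Herpud1 held elements of both kinds. Its 250 bases before the start are shown because they join both arms of the response. Those of Hspa5, Chac1 and Asns follow, as the leading chaperone and the ATF4 targets with the lowest and the highest e1 change, with the stretch just after the start of Trib3. Capitals again mark the elements, and no match overlapped another. A match describes the letters only.
Herpud1, chr8:94386179-94386428, plus strand: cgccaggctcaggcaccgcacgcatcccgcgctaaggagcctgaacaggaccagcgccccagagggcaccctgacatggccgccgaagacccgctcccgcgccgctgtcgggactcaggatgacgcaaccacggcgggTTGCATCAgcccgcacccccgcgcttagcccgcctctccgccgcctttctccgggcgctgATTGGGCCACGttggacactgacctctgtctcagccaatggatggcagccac
Hspa5, chr2:34771840-34772089, plus strand: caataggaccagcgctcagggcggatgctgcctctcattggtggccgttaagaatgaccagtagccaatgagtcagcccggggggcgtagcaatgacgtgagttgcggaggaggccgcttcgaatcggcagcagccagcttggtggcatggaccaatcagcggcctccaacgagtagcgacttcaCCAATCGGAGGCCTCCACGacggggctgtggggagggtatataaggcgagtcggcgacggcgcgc
Chac1, chr2:119350992-119351241, plus strand: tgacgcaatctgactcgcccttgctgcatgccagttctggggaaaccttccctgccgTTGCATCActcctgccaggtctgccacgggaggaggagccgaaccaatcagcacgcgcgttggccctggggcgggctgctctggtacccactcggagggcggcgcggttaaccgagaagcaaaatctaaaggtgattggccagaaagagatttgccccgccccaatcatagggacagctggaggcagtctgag
Asns, chr6:7693210-7693459, minus strand: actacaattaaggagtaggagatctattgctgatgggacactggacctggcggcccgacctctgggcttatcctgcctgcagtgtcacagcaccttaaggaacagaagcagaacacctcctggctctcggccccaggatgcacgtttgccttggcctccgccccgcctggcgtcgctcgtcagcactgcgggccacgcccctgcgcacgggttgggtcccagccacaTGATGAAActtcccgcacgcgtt
Trib3, chr2:152344029-152344056, minus strand: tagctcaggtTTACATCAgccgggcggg

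**Figure D1:**
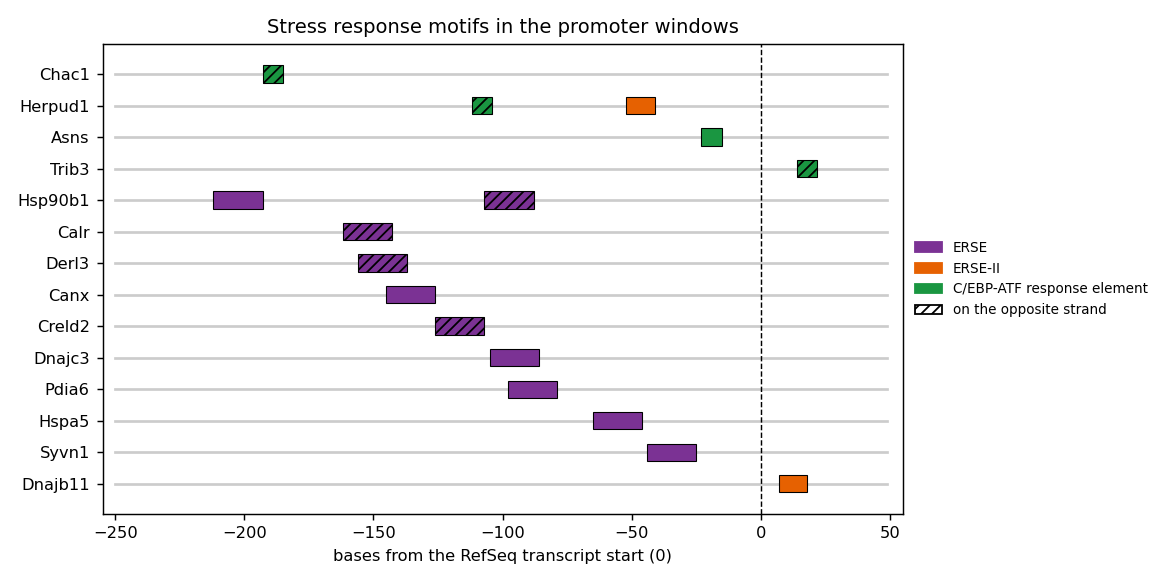
Position of the elements in the promoter windows of the 14 genes that held any, in bases from the RefSeq transcript start (horizontal axis, 0 is the first transcribed base), 1 gene per row; colour gives the element and hatching the opposite strand. Of the 10 ERSE matches, all lie before the start, from -212 to -26, while the elements of Trib3 and Dnajb11 lie after it.

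Values were TPM, a transcript abundance scaled by length and set against the library total. How many reads stand behind a TPM value is unknown. From 11188 to 12039 genes reached 1 TPM per library, and Pearson correlations within groups were 0.987 to 0.995. The test took genes that reached 1 TPM in 3 or more libraries of the 9, which were 12769. Of the 33 genes, 32 passed. Derl3, a derlin known from secretory tissue, did not: it stood at 0.46, 0.345 and 0.79 TPM in the parental libraries, 0.135, 0.134 and 0.444 TPM in e1 and 0.802, 0.697 and 0.565 TPM in e2. Tumor epithelium markers (Krt7, Krt8, Krt18, Krt19, Epcam and Cdh1) summed to between 8044 and 9324 TPM in parental cells, between 1164 and 1207 TPM in e1 and between 1675 and 1735 TPM in e2, so the labelled cell type was plain in the parental cells, while Epcam was at 134 TPM there and at 0.296 and 0.185 TPM in e1 and e2. Fibroblast and mesenchymal markers summed to between 0.680 and 1.01 TPM in parental cells, between 211 and 247 TPM in e1 and between 241 and 248 TPM in e2, with Lum at 0 in all libraries. The members behind these sums differed between the lines: e1 had mostly Col1a1 and Col1a2 (103 and 116 TPM, against 34.8 and 82.0 TPM in e2), while Dcn and Pdpn were near 0 in e1 (0.148 and 0.0518 TPM) and at 35.5 and 70.3 TPM in e2, and Thy1 and Pdgfra were at 3.6 and 1.001 TPM in e1 and 17.1 and 5.26 TPM in e2. Of cell types with a large ER, acinar markers summed to at most 0.143 TPM (3 of 7 at 0 in all libraries), and of 4 plasma cell markers only Sdc1, which epithelium also expresses, reached 1 TPM. Immune markers reached at most 1.56 TPM and endothelial markers at most 0.885 TPM. The part that the marker shifts play in the results below was not tested.

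Both derived lines moved away from the parental cells, and they did so differently. Fold changes below are log2 differences on log2(TPM + 1) from limma with Benjamini-Hochberg adjustment over the 12769 genes, given with their SE. An adjusted p under 0.05 counted as a call. In e1 against parental, 9 of 32 genes rose and 12 fell, or 28.1 and 37.5%, where 35.7% of all tested genes rose and 34.9% fell. In e2 against parental, 16 rose and 8 fell (50 and 25%), where 40.8% of all tested genes rose and 32.7% fell. With e2 set directly against e1, 21 were higher and 4 lower (65.6 and 12.5%), where 40.6% of all tested genes were higher and 29.7% lower. Counted in either direction, 21, 24 and 25 of 32 genes were called, where 70.6, 73.5 and 70.3% of all tested genes were. The medians of the 32 fold changes were -0.08, 0.22 and 0.31 in that order, beside 0.02, 0.07 and 0.09 over all tested genes. The e1 shares thus lay near the share among all genes in the lower direction and under it in the higher, and the direct comparison of the lines lay furthest from it. With median-ratio scaling in place of TPM, the split in e2 against parental became 13 rises and 10 falls, where 36.3% of all tested genes rose and 37.8% fell. In e2 against e1 it became 17 higher and 5 lower, where 36.2% of all tested genes were higher and 34.8% lower. The authors' rlog values gave the same member counts, 13 and 10 and then 17 and 5, beside 36.3 and 37.7% and then 36.5 and 35.0% of all genes.

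The changes were modest in size. The median absolute fold change of the 32 genes was 0.36, 0.34 and 0.35 in the 3 comparisons, against 0.44, 0.47 and 0.43 for all tested genes. Called changes of 1 or more on the log2 scale were found for Chac1 and Trib3 (lower in e1), for Ddit3, Ern1 and Dnajb9 (higher in e2), and for Ddit3 and Dnajb9 in e2 over e1. Among all tested genes, 20.2, 23.7 and 17.8% were called at that size. The e1 and e2 comparisons share the parental libraries, so their values are set side by side and not correlated. Opposite calls against parental were found for 3 genes, Xbp1 and Derl1 (lower in e1, higher in e2) and Asns (higher in e1, lower in e2). Syvn1 was the 1 gene called in neither line. The commonest patterns were no call in e1 with a rise in e2 (8 genes, all 8 also higher in e2 than in e1) and a fall in e1 with no call in e2 (5 genes, all 5 higher in e2 than in e1).

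**Figure D2:**
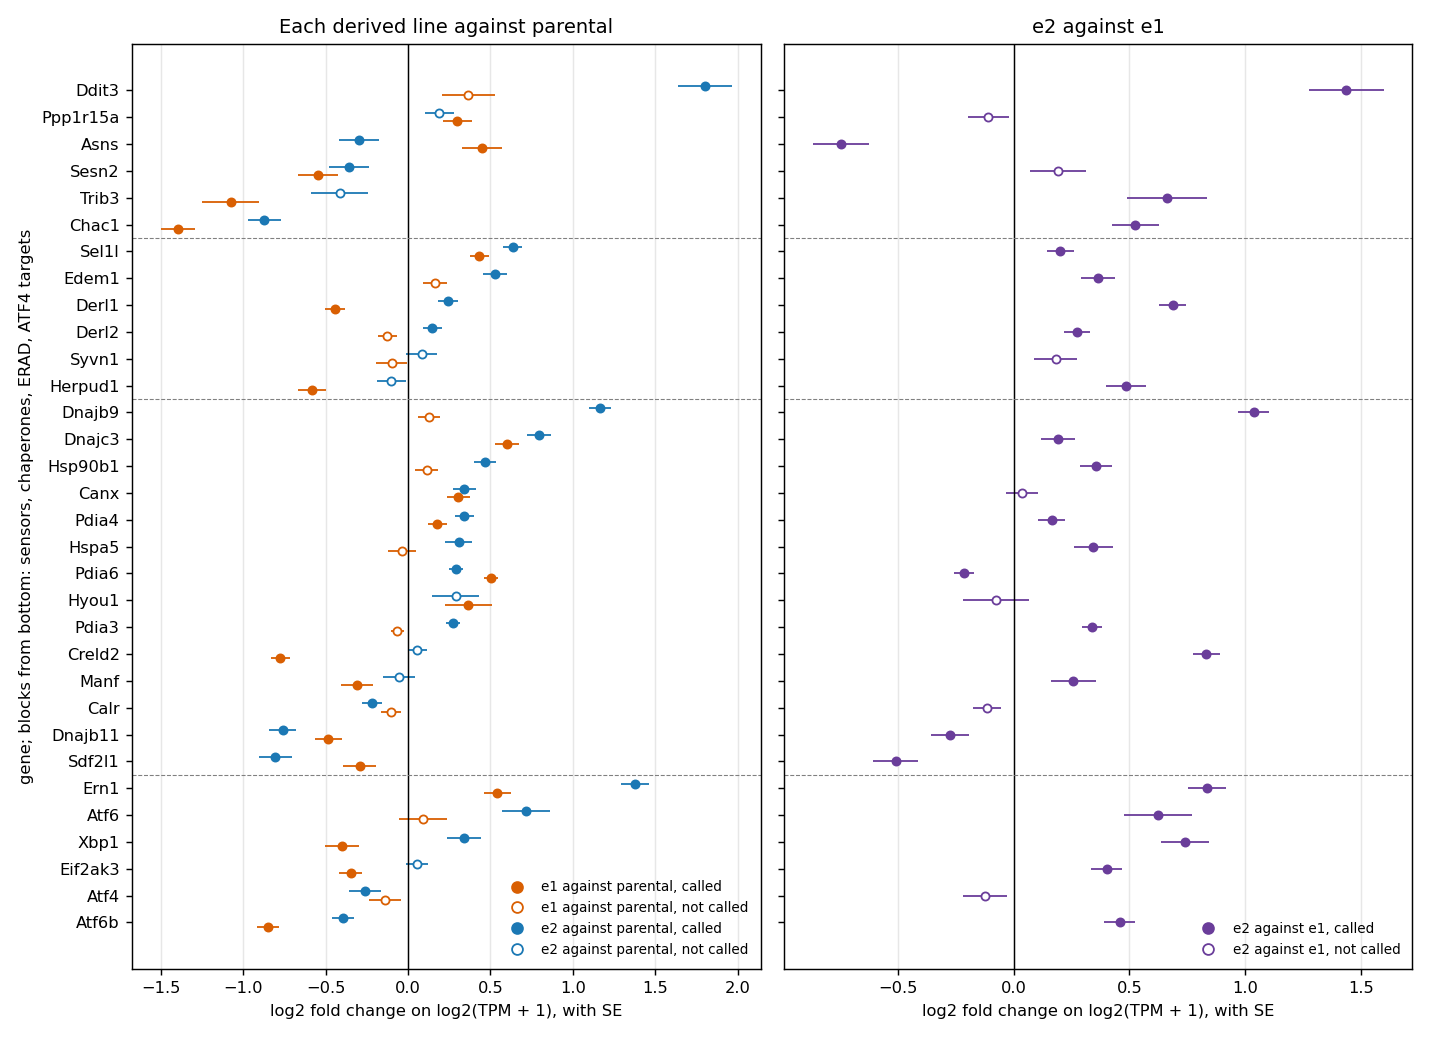
Log2 fold change on log2(TPM + 1) of each of the 32 tested genes (points, with SE from limma), filled where called and open where not; rows are blocked by role and ordered by the e2 change. Left, e1 (orange) and e2 (blue) against parental; right, e2 against e1, where 21 of the 25 called genes lie above 0.

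The sensors and transcription factors were mostly higher in e2 than in e1. Of these 6 genes, 1 rose and 3 fell in e1 (16.7 and 50%), where 35.7% of all tested genes rose and 34.9% fell. In e2, 3 rose and 2 fell (50 and 33.3%), where 40.8% of all tested genes rose and 32.7% fell. Between the lines, 5 were higher in e2 and none lower (83.3 and 0%), beside 40.6 and 29.7% of all tested genes. Ern1, which encodes IRE1, rose in both lines and more in e2. It stood at 9.05, 8.27 and 8.35 TPM in the parental libraries, 14.7, 12.1 and 12.1 TPM in e1 and 24.6, 23.8 and 23.1 TPM in e2. The groups did not overlap, with each e2 library above each e1 library and these above the parental ones. The change was 0.54 ± 0.08, adjusted p = 0.000236 in e1, 1.38 ± 0.08, adjusted p = 2.85e-07 in e2 and 0.83 ± 0.08, adjusted p = 1.35e-05 in e2 against e1.

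Xbp1, whose mRNA IRE1 splices, went in opposite directions in the lines. Its values were 35.1, 48.8 and 44.3 TPM in the parental libraries, 29.9, 32.4 and 33.2 TPM in e1 and 52.8, 54.7 and 53.8 TPM in e2. The parental libraries lay between the groups, with parental library 1 the lowest of its group. Xbp1 fell in e1 (-0.40 ± 0.11, adjusted p = 0.00689) and rose in e2 (0.34 ± 0.11, adjusted p = 0.0154), and e2 exceeded e1 by 0.74 ± 0.11, adjusted p = 0.000161. The rise in e2 was the less secure of these, at an adjusted p of 0.0679 in limma when no filter on low values was set and at 0.21 (adjusted p = 0.02) when parental library 1 was left out.

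Atf6, the sensor that becomes a transcription factor when cut, was measured at 15.3, 15.4 and 15.5 TPM in the parental libraries, 22.3, 14.5 and 13.8 TPM in e1 and 27.2, 25.8 and 25.1 TPM in e2. The parental and e2 values were tight, while e1 library 1 stood well above the other e1 libraries. Atf6 rose in e2 (0.72 ± 0.15, adjusted p = 0.00154), whereas the e1 change of 0.09 ± 0.15, adjusted p = 0.593 was not called and became -0.11 ± 0.05, adjusted p = 0.0698 without e1 library 1. Its relative Atf6b fell in both lines, at 48.2, 55.9 and 53.4 TPM in the parental libraries, 29.8, 27.2 and 28.8 TPM in e1 and 39.3, 38.8 and 40.9 TPM in e2. No library of one group entered the range of another. The Atf6b change was -0.85 ± 0.07, adjusted p = 2.06e-06 in e1 and -0.39 ± 0.07, adjusted p = 0.00044 in e2, and e2 lay above e1 by 0.46 ± 0.07, adjusted p = 0.000179. The 2 ATF6 genes thus moved apart in e2, Atf6 up and Atf6b down.

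Eif2ak3, which encodes PERK, was at 13.1, 11.5 and 11.5 TPM in the parental libraries, 9.18, 9.36 and 9.13 TPM in e1 and 12.7, 12.8 and 11.96 TPM in e2. It fell in e1 (-0.35 ± 0.07, adjusted p = 0.00119), where the 3 libraries differed by little, and overlapped parental in e2 (0.05 ± 0.07, adjusted p = 0.49). Atf4, by far the most abundant of the 6, stood at 377, 361 and 344 TPM in the parental libraries, 392, 300.1 and 299 TPM in e1 and 304, 295 and 302 TPM in e2. Library 1 of e1 was above every parental library, and the other e1 libraries were below them all. The e1 change of -0.14 ± 0.10, adjusted p = 0.226 was not called, but without that library it was -0.27 ± 0.04, adjusted p = 0.000395. Atf4 fell in e2 (-0.26 ± 0.10, adjusted p = 0.0326), a call that ended in 7 of 18 alternative settings (adjusted p from 0.0664 to 0.114 in limma in those 7), among them without parental library 1 or 2 and without any e2 library.

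The chaperones held most of the RNA of the response, with the highest mean sum in e2. The 14 genes summed to 3560 ± 238 TPM (SD, n = 3) in parental cells, 3598 ± 185 TPM in e1 and 3970 ± 68.4 TPM in e2. These sums were not rescaled. Median-ratio scaling divides parental values by 0.953 to 1.003, e1 values by 0.939 to 0.998 and e2 values by 1.039 to 1.062. In e1, 5 of 14 rose and 4 fell (35.7 and 28.6%), near the 35.7 and 34.9% of all tested genes. In e2, 8 rose and 3 fell (57.1 and 21.4%), beside 40.8 and 32.7% of all tested genes. With e2 against e1, 8 were higher and 3 lower (57.1 and 21.4%), beside 40.6 and 29.7%. Hspa5 (BiP), the main ER chaperone of the HSP70 family and a sentinel of the response, stood at 594, 693 and 669.7 TPM in the parental libraries, 722, 601 and 589 TPM in e1 and 825, 795 and 796 TPM in e2. The e2 libraries lay above all others, and e1 overlapped parental. The change was -0.04 ± 0.08, adjusted p = 0.715 in e1, 0.31 ± 0.08, adjusted p = 0.00823 in e2 and 0.34 ± 0.08, adjusted p = 0.00475 in e2 against e1. The rise over parental in e2 was lost with median-ratio scaling (0.21, adjusted p = 0.0686) and in the rlog values (0.18, adjusted p = 0.0645), both by limma.

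Hsp90b1 (GRP94), the HSP90 of the ER, behaved as Hspa5 did in these calls. It was measured at 352, 407 and 393 TPM in the parental libraries, 449.5, 404 and 392 TPM in e1 and 540.3, 525 and 527 TPM in e2. All e2 libraries exceeded the rest. It rose in e2 (0.47 ± 0.07, adjusted p = 0.000173), with 0.11 ± 0.07, adjusted p = 0.169 in e1, and was higher in e2 than in e1 (0.36 ± 0.07, adjusted p = 0.00114). Dnajb9 (ERdj4), a co-chaperone that delivers clients to BiP and restrains IRE1, showed the largest rise among the 14. It stood at 14.8, 14.1 and 13.2 TPM in the parental libraries, 16.03, 14.7 and 15.6 TPM in e1 and 34.3, 31.3 and 32.4 TPM in e2. The e2 libraries were all more than any other library, while e1 and parental overlapped. The change was 1.16 ± 0.07, adjusted p = 1.88e-07 in e2, 0.13 ± 0.07, adjusted p = 0.106 in e1 and 1.04 ± 0.07, adjusted p = 7.09e-07 between the lines; the e1 change passed without parental library 1 (0.17, adjusted p = 0.0489).

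Other co-chaperones of BiP split. Dnajc3 (p58IPK), a co-chaperone also known to inhibit PERK, rose in both lines, at 17.3, 20.9 and 20.5 TPM in the parental libraries, 31.2, 29.8 and 29.4 TPM in e1 and 35.05, 33.6 and 34.9 TPM in e2. All 6 escape libraries exceeded the parental ones, with 0.60 ± 0.07, adjusted p = 5.17e-05 in e1 and 0.79 ± 0.07, adjusted p = 6.76e-06 in e2. The small excess of e2 over e1 (0.19 ± 0.07, adjusted p = 0.0417) was lost in 9 of 18 settings. Among them were omissions of e1 library 2 or 3 and of any e2 library (adjusted p from 0.0675 to 0.109). It was 0.09 with median-ratio scaling (adjusted p = 0.267 by limma) and 0.08 in the rlog values (adjusted p = 0.252). Dnajb11 (ERdj3) fell in both, at 114, 135 and 127 TPM in the parental libraries, 98.01, 89.1 and 81.4 TPM in e1 and 76.2, 71.7 and 72.7 TPM in e2. The 3 groups descended without overlap, with -0.48 ± 0.08, adjusted p = 0.000498 in e1 and -0.76 ± 0.08, adjusted p = 2.06e-05 in e2. Its known partner Sdf2l1 fell too, at 47.3, 61.4 and 59.7 TPM in the parental libraries, 49.2, 44.6 and 42.4 TPM in e1 and 30.4, 32.5 and 31.6 TPM in e2. In e1 the ranges met parental library 1, and the call (-0.29 ± 0.10, adjusted p = 0.0236) was lost in 6 of 18 settings, among them without parental library 2 or 3 and without e1 library 2 or 3 (adjusted p from 0.0589 to 0.0918), while in e2 the fall was clear of both other groups (-0.80 ± 0.10, adjusted p = 5.32e-05). Both genes were lower in e2 than in e1, by -0.28 ± 0.08, adjusted p = 0.0131 for Dnajb11 and -0.51 ± 0.10, adjusted p = 0.00121 for Sdf2l1.

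Hyou1 (GRP170), a nucleotide exchange factor for BiP, had a smaller e1 change, still called, without 1 of its libraries. It stood at 76.7, 88.3 and 89.3 TPM in the parental libraries, 143, 95.5 and 95.4 TPM in e1 and 106, 102 and 103 TPM in e2. Library 1 of e1 was the highest of the 9, and the other e1 libraries lay between parental and e2. The rise in e1 (0.37 ± 0.14, adjusted p = 0.0425) shrank to 0.17 ± 0.06, adjusted p = 0.0352 without that library, and it was lost in 12 of 18 settings, among them without any parental or any e2 library (adjusted p from 0.058 to 0.144). The e2 value of 0.29 ± 0.14, adjusted p = 0.0926 was not called, although its libraries did not overlap parental, yet passed once e1 library 1 was left out (adjusted p = 0.00118), where the SE was 0.06 in place of 0.14 for the change in e1.

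The protein disulfide isomerases, which form and shuffle disulfide bonds, rose in e2 in all 3 cases, but not alike in e1. Pdia3 (ERp57), which works with calnexin and calreticulin, stood at 500.0, 523 and 501 TPM in the parental libraries, 481, 486 and 490.0 TPM in e1 and 635, 604 and 603 TPM in e2. It rose in e2 only by call (0.27 ± 0.04, adjusted p = 0.000225), with -0.06 ± 0.04, adjusted p = 0.191 in e1, and e2 exceeded e1 by 0.34 ± 0.04, adjusted p = 6.04e-05. Pdia4 (ERp72) was at 119.9 ± 8.26 TPM in parental cells, 135 ± 2.36 in e1 and 152 ± 3.40 in e2 (SD, n = 3), a change of 0.18 ± 0.06, adjusted p = 0.0201 in e1 and 0.34 ± 0.06, adjusted p = 0.000459 in e2. The e1 call was lost in 4 of 18 settings, among them without e1 library 2 or 3 (adjusted p = 0.0614 and 0.0523). The excess of e2 over e1 (0.16 ± 0.06, adjusted p = 0.028) was lost in 7. Among them were omissions of e1 library 3 or any e2 library (adjusted p from 0.0557 to 0.0969). With median-ratio scaling it was 0.06 (adjusted p = 0.243 by limma), and in the rlog values 0.06 (adjusted p = 0.266). Pdia6 (P5), known to attenuate IRE1, was highest in e1, at 245, 259 and 250.3 TPM in the parental libraries, 365, 359 and 348 TPM in e1 and 311, 309 and 302 TPM in e2. No group overlapped another, and the changes were 0.50 ± 0.04, adjusted p = 4.33e-06 in e1, 0.29 ± 0.04, adjusted p = 0.000205 in e2 and -0.21 ± 0.04, adjusted p = 0.00154 in e2 against e1.

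Of the lectin chaperones that hold glycoproteins, the membrane-bound one and the soluble one moved apart. Canx (calnexin) was at 235, 259 and 246 TPM in the parental libraries, 339, 292 and 287 TPM in e1 and 322, 311 and 306 TPM in e2 and rose in both lines (0.31 ± 0.07, adjusted p = 0.0033 in e1; 0.34 ± 0.07, adjusted p = 0.0016 in e2). Calr (calreticulin), the most abundant of the 33 genes in parental cells, was at 784, 922 and 908 TPM in the parental libraries, 806, 818 and 805 TPM in e1 and 752, 748 and 742 TPM in e2. Its e1 libraries overlapped parental (-0.10 ± 0.06, adjusted p = 0.152), and its e2 libraries lay below all others (-0.22 ± 0.06, adjusted p = 0.0082). Neither differed between the lines by call, with 0.04 ± 0.07, adjusted p = 0.662 for Canx and -0.12 ± 0.06, adjusted p = 0.11 for Calr; the latter passed with median-ratio scaling (-0.22, adjusted p = 0.00408) and without parental library 1 (adjusted p = 0.00495), as did the e1 change of Calr without parental library 1 (-0.18, adjusted p = 0.00115).

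Manf and Creld2, small secreted ER stress proteins, were low in e1 and near parental in e2. Creld2 stood at 91.9, 101 and 97.5 TPM in the parental libraries, 60.1, 54.5 and 54.1 TPM in e1 and 101, 102 and 99.6 TPM in e2. The e1 libraries lay far below the rest, while e2 fell within the span of parental or close to it. Creld2 fell in e1 (-0.77 ± 0.06, adjusted p = 1.73e-06), the change in e2 was 0.06 ± 0.06, adjusted p = 0.404, and e2 exceeded e1 by 0.83 ± 0.06, adjusted p = 1.49e-06. Manf was at 129 ± 15.9 TPM in parental cells, 104 ± 10.7 in e1 and 124 ± 0.766 in e2 (SD, n = 3), with -0.31 ± 0.10, adjusted p = 0.0165 in e1, -0.05 ± 0.10, adjusted p = 0.628 in e2 and 0.26 ± 0.10, adjusted p = 0.0382 between the lines. The first of these calls was lost in 4 of 18 settings, among them without parental library 2 or 3 or e1 library 3 (adjusted p from 0.0605 to 0.0668). The last was lost in 9, among them without e1 library 2 or 3 and without any e2 library (adjusted p from 0.0797 to 0.124). It became 0.16 with median-ratio scaling (adjusted p = 0.191 by limma) and 0.14 in the rlog values (adjusted p = 0.18).

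Of the 9 ERSE-bearing genes printed above, 8 were tested. In these, 3 rose and 1 fell in e1, 5 rose and 1 fell in e2, and 4 were higher and 1 lower in e2 than in e1. The shares of all tested genes were 35.7 and 34.9%, 40.8 and 32.7%, and 40.6 and 29.7% in that order. In e1, Dnajc3, Pdia6 and Canx rose and Creld2 fell; in e2, Hspa5, Hsp90b1, Canx, Pdia6 and Dnajc3 rose and Calr fell. Genes that hold the same element therefore moved in both directions. Their fold changes ran from -0.77 to 0.60 in e1 and from -0.22 to 0.79 in e2.

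**Figure D3:**
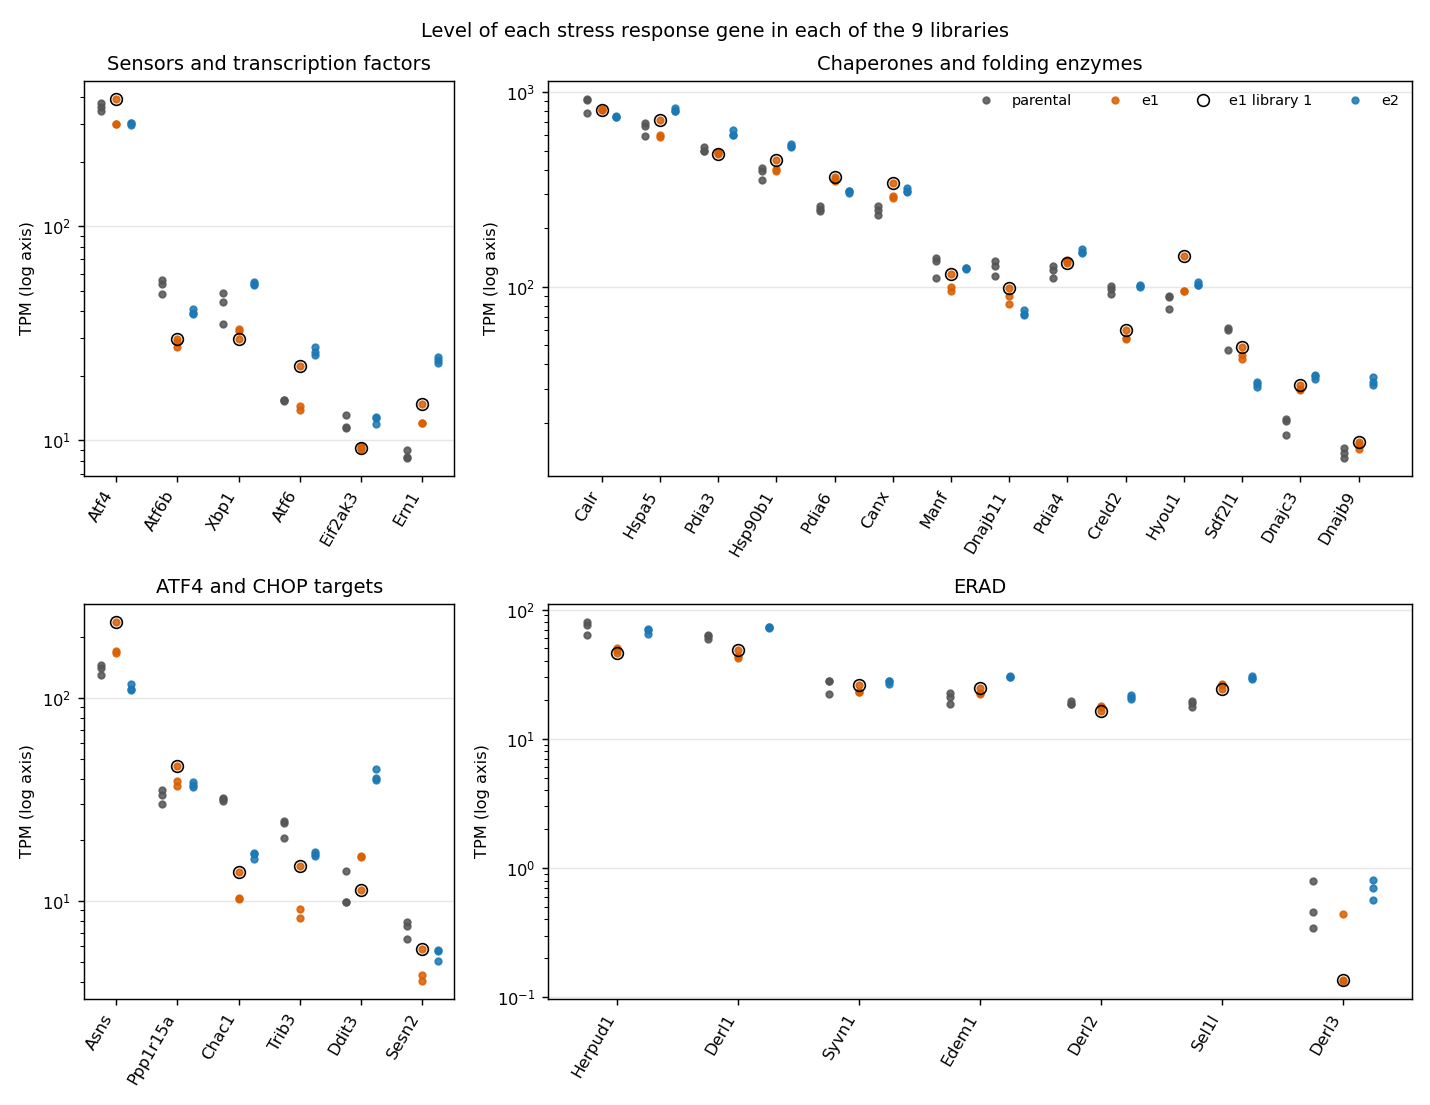
TPM (log axis) of each of the 33 genes in each library, in panels by role and ordered by the parental mean; grey points are parental, orange e1 and blue e2 libraries, 3 each, and a ring marks e1 library 1. The e2 points of Ddit3, Dnajb9 and Ern1 sit above all others, and the ring stands away from the other e1 points for Atf6, Hyou1, Asns, Trib3 and Atf4.

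ERAD genes were also mostly higher in e2 than in e1. Summed over the 7 genes, their RNA was 220.1 ± 14.4 TPM (SD, n = 3) in parental cells, 184 ± 1.69 TPM in e1 and 250.2 ± 4.601 TPM in e2. As with the chaperones, these sums were not rescaled. Of the 6 tested, 1 rose and 2 fell in e1 (16.7 and 33.3%), and 4 rose and none fell in e2 (66.7 and 0%). Between the lines, 5 were higher and none lower in e2 than in e1 (83.3 and 0%). The shares of all tested genes were 35.7 and 34.9%, 40.8 and 32.7%, and 40.6 and 29.7% in that order. Under median-ratio scaling and in the rlog values, the rises of Derl1 and Derl2 over parental in e2 were not called. Herpud1 was then called lower in e2, and the excess of Sel1l over e1 was not called. In e2 against parental, 36.3% of all tested genes rose and 37.8% fell with median-ratio scaling. Herpud1 (HERP), an organiser of the degradation complex, stood at 63.7, 80.6 and 76.5 TPM in the parental libraries, 45.9, 48.9 and 50.9 TPM in e1 and 70.2, 65.2 and 69.4 TPM in e2. The e1 libraries were below the other groups, which overlapped. It fell in e1 (-0.58 ± 0.09, adjusted p = 0.000198), changed by -0.10 ± 0.09, adjusted p = 0.312 in e2, and was higher in e2 than in e1 (0.48 ± 0.09, adjusted p = 0.000715). With median-ratio scaling Herpud1 also fell in e2 (-0.20, adjusted p = 0.0293), and without parental library 1 likewise (-0.20, adjusted p = 0.0175).

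Derl1, a derlin of the channel through which proteins leave the ER, moved in opposite directions. It was at 63.1, 62.02 and 59.3 TPM in the parental libraries, 48.5, 44.03 and 42.3 TPM in e1 and 73.2, 71.5 and 73.8 TPM in e2. The e1 libraries were all below and the e2 libraries all above parental. The change was -0.45 ± 0.06, adjusted p = 0.000104 in e1 and 0.24 ± 0.06, adjusted p = 0.00475 in e2, with 0.69 ± 0.06, adjusted p = 5.94e-06 between the lines. The rise over parental was lost with median-ratio scaling (0.14, adjusted p = 0.106 by limma) and in the rlog values (0.13, adjusted p = 0.0994). Derl2, its close relative, was at 18.98 ± 0.672 TPM in parental cells, 17.3 ± 0.793 in e1 and 21.1 ± 0.728 in e2 (SD, n = 3), a change of -0.13 ± 0.06, adjusted p = 0.0791 in e1 and 0.15 ± 0.06, adjusted p = 0.0429 in e2. That rise was lost in 11 of 18 settings. Among them were omissions of parental library 1 or 3, e1 library 2 or 3 or any e2 library (adjusted p 0.0531 to 0.147). It was 0.05 with median-ratio scaling (adjusted p = 0.339 by limma) and 0.05 in the rlog values (adjusted p = 0.346). The excess of Derl2 over e1 (0.27 ± 0.06, adjusted p = 0.00212) was kept in all 18.

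Sel1l, the scaffold of the HRD1 ubiquitin ligase, rose in both lines, at 17.6, 19.1 and 19.6 TPM in the parental libraries, 24.3, 26.6 and 26.1 TPM in e1 and 30.3, 29.04 and 29.6 TPM in e2. All escape libraries exceeded parental, with 0.43 ± 0.06, adjusted p = 0.000125 in e1 and 0.63 ± 0.06, adjusted p = 7.7e-06 in e2. The difference between the lines (0.20 ± 0.06, adjusted p = 0.0131) was lost in 4 of 18 settings, among them without e2 library 1 (adjusted p = 0.0513). With median-ratio scaling it was 0.10 (adjusted p = 0.0778 by limma), and in the rlog values 0.09 (adjusted p = 0.0683). Edem1, a lectin that routes misfolded glycoproteins to degradation, was at 18.6, 22.6 and 20.9 TPM in the parental libraries, 24.7, 22.6 and 22.4 TPM in e1 and 30.6, 29.9 and 30.03 TPM in e2. It rose in e2 (0.53 ± 0.07, adjusted p = 0.000138), overlapped parental in e1 (0.16 ± 0.07, adjusted p = 0.0762), and was higher in e2 than in e1 (0.36 ± 0.07, adjusted p = 0.00167); without parental library 2 the e1 change passed (0.23, adjusted p = 0.0252). Syvn1, which encodes the ligase HRD1 itself, was at 25.98 ± 3.32 TPM in parental cells, 24.1 ± 1.64 in e1 and 27.4 ± 0.971 in e2 (SD, n = 3), and its changes were -0.10 ± 0.09, adjusted p = 0.36 in e1, 0.08 ± 0.09, adjusted p = 0.437 in e2 and 0.18 ± 0.09, adjusted p = 0.105 between the lines. Without parental library 1, Syvn1 fell in e1 (-0.21, adjusted p = 0.0226) and was higher in e2 than in e1 (adjusted p = 0.0218). The scaffold thus rose where no change in its ligase was called over all libraries.

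The ATF4 and CHOP targets did not move together. Of 6, 2 rose and 3 fell in e1 (33.3 and 50%), and 1 rose and 3 fell in e2 (16.7 and 50%). Between the lines, 3 were higher and 1 lower in e2 than in e1 (50 and 16.7%). All tested genes gave 35.7 and 34.9%, 40.8 and 32.7%, and 40.6 and 29.7% in that order. Ddit3 (CHOP), the pro-apoptotic factor of the response, gave the largest rise of the 33 genes. It stood at 14.1, 9.91 and 9.90 TPM in the parental libraries, 11.4, 16.6 and 16.7 TPM in e1 and 44.6, 39.6 and 40.4 TPM in e2. The e2 libraries were far above the rest, and parental library 1 and e1 library 1 each stood apart from their own group, one above it and one below it. The change was 1.80 ± 0.16, adjusted p = 5.61e-06 in e2 and 1.44 ± 0.16, adjusted p = 3.47e-05 in e2 against e1. In e1 it was 0.37 ± 0.16, adjusted p = 0.0691, not called. Leaving out e1 library 1 gave 0.53 ± 0.13, adjusted p = 0.00518, and leaving out parental library 1 gave 0.52, adjusted p = 0.0159. The exons of Ddit3 overlap those of Mars on the opposite strand over 68 bases (3.97% of Ddit3 exon bases), and with the strand setting not given, reads there cannot be told apart; Mars itself was at 75.2, 65.4 and 58.4 TPM in parental, e1 and e2.

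The other targets gave mixed changes. Trib3, a pseudokinase that restrains ATF4 and CHOP activity, was at 24.7, 24.3 and 20.5 TPM in the parental libraries, 14.8, 8.31 and 9.13 TPM in e1 and 17.1, 16.6 and 17.5 TPM in e2. All escape libraries were below parental, with e1 library 1 the highest of its group. Trib3 fell in e1 (-1.07 ± 0.17, adjusted p = 0.000362; -1.31 ± 0.08, adjusted p = 3.6e-07 without e1 library 1). In e2 it was -0.41 ± 0.17, adjusted p = 0.0545, not called, yet passed in 6 of 18 settings. Among them were omissions of e1 library 1 (adjusted p = 0.000522) and e1 library 2 (adjusted p = 0.0331). The fall also passed with median-ratio scaling (-0.51, adjusted p = 0.0378 by limma) and in the rlog values (-0.44, adjusted p = 0.034). Chac1, a glutathione-degrading enzyme and ATF4 target, fell in both lines, at 32.2, 31.3 and 31.7 TPM in the parental libraries, 13.96, 10.4 and 10.3 TPM in e1 and 17.4, 16.2 and 17.1 TPM in e2. The 3 groups did not overlap, e1 being the lowest. Its change was -1.40 ± 0.10, adjusted p = 1.33e-06 in e1 and -0.87 ± 0.10, adjusted p = 3.64e-05 in e2, and e2 exceeded e1 by 0.53 ± 0.10, adjusted p = 0.00122. Ppp1r15a (GADD34), which helps remove the phosphate from eIF2alpha, was at 30.1, 35.2 and 33.3 TPM in the parental libraries, 46.3, 37.00 and 39.01 TPM in e1 and 38.5, 36.7 and 37.4 TPM in e2. Every escape library was above parental, with 0.30 ± 0.09, adjusted p = 0.0126 in e1 and, not called, 0.19 ± 0.09, adjusted p = 0.078 in e2; without e1 library 1 the latter passed at an adjusted p of 0.0144.

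Asns, asparagine synthetase and a classical ATF4 target, was the 1 target with opposite calls. It stood at 129.5, 145 and 141 TPM in the parental libraries, 238, 171 and 167 TPM in e1 and 117, 111 and 110.2 TPM in e2. All e1 libraries were above and all e2 libraries below parental, and e1 library 1 was far above the other e1 libraries. Asns rose in e1 (0.45 ± 0.12, adjusted p = 0.00798; 0.29 ± 0.06, adjusted p = 0.000996 without e1 library 1) and was lower in e2 than in e1 (-0.75 ± 0.12, adjusted p = 0.000394). The fall against parental in e2 (-0.30 ± 0.12, adjusted p = 0.0499) sat at the threshold and was lost in 11 of 18 settings, among them without any parental or any e2 library (adjusted p from 0.0593 to 0.135). Sesn2 (sestrin 2), a stress-induced inhibitor of mTORC1, was the lowest of the targets, at 7.90, 7.59 and 6.52 TPM in the parental libraries, 5.83, 4.06 and 4.32 TPM in e1 and 5.07, 5.66 and 5.74 TPM in e2. It fell in e1 (-0.55 ± 0.12, adjusted p = 0.00261) and in e2 (-0.36 ± 0.12, adjusted p = 0.0227), the latter lost in 4 of 18 settings, among them without parental library 1 or 2 or e2 library 1 (adjusted p from 0.0682 to 0.0802), and the lines differed by 0.19 ± 0.12, adjusted p = 0.189, which became 0.32 ± 0.09, adjusted p = 0.00853 without e1 library 1.

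The C/EBP-ATF element shown above was held by 4 tested genes, of which Chac1, Trib3 and Herpud1 fell and Asns rose in e1, and of which Chac1 and Asns fell in e2. In e2 against e1, 3 were higher and Asns lower. All tested genes gave 35.7% rises and 34.9% falls in e1, 40.8 and 32.7% in e2, and 40.6 and 29.7% between the lines.

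The first e1 library stood apart within its group, and more often upward for these genes than for genes at large. It was above both other e1 libraries for 23 of the 32 genes (71.9%), against 38.5% of all tested genes, with a median difference of 0.16 from the mean of the other 2 on the log2 scale (-0.03 over all genes). Its median absolute difference was 0.17 for these genes and 0.18 over all genes. Trib3, Atf6, Hyou1, Asns and Chac1 differed most upward and Ddit3 most downward. An upward excess was also found for e2 library 1, above both others for 22 of the 32 (all genes, 52.4%). Parental library 2 was above both others for 20 of the 32 (all genes, 48.2%). Their median differences were smaller, at 0.04 and 0.10. Parental library 1 was below both others of its group for 23 of the 32 (all genes, 51.8%), with a median difference of -0.13, and it also gave the largest share of its TPM to the small RNA gene Mir6236, 9.48% against 3.92 to 8.58% in the other 8 libraries. The part of that share in these differences was not tested. Spread was least in e2, where the median coefficient of variation of the 32 genes was 2.62%, against 7.22% in e1 and 7.67% in parental cells. Over all tested genes it was also lowest in e2, at 3.86%, against 10.5% in e1 and 7.48% in parental cells.

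Without e1 library 1, where 12659 genes were tested, 10 genes rose and 13 fell in e1 against parental (38.9 and 36.9% of all tested genes did), and 23 were higher and 4 lower in e2 than in e1 (41.7 and 31.2% of all tested genes). Against parental, Atf4 joined the falls and Ddit3 the rises; in e2 against e1, Syvn1 and Sesn2 joined the genes higher in e2. All 6 ERAD genes were then higher in e2 than in e1. No called gene lost its call by this omission in these 2 comparisons.

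**Figure D4:**
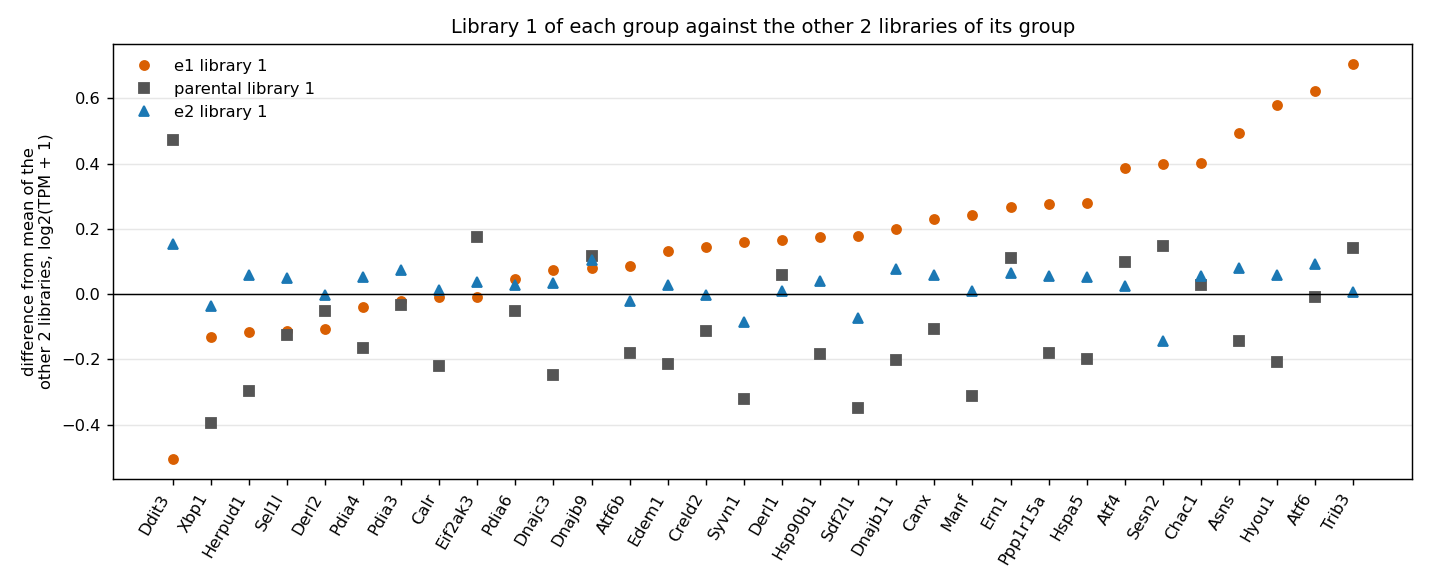
Difference of library 1 of each group from the mean of the other 2 libraries of its group (vertical axis, log2(TPM + 1)) for the 32 tested genes, ordered by the e1 difference. The e1 points (orange circles) are above 0 for most genes, with Trib3 highest and Ddit3 lowest, the parental points (grey squares) are mostly below 0, and the e2 points (blue triangles) stay near 0.

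Beyond the 33, 10 lists of neighbouring pathway genes were read in the same fit, as counts, each with its share of the list. As above, 35.7% of all tested genes rose and 34.9% fell in e1, and 40.8% rose and 32.7% fell in e2. Between the lines, 40.6% of all tested genes were higher and 29.7% lower in e2 than in e1. The kinases and exchange factors that set translation through eIF2alpha were split, with 6 of 13 higher and 6 lower in e1 (46.2% each), and 4 higher and 5 lower in e2 (30.8 and 38.5%). In e2 against e1, 5 were higher and 7 lower (38.5 and 53.8%). Impact, an inhibitor of the kinase GCN2, was at 7.70 TPM in parental cells, 13.6 in e1 and 37.2 in e2 (e2, 2.14 ± 0.14, adjusted p = 7.07e-07). Eif2b5, a catalytic subunit of the exchange factor eIF2B, was at 120.1 TPM in parental cells, 77.5 in e1 and 44.99 in e2 (e2, -1.40 ± 0.05, adjusted p = 1.21e-08). Both moved the same way in the 2 lines, and further in e2.

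Other ATF4 pathway genes fell more often than they rose. Of 25, 6 rose and 12 fell in e1 (24.0 and 48.0%), and 6 rose and 17 fell in e2 (24.0 and 68.0%), with a median change of -0.65 in e2 beside 0.07 for all genes. In e2 against e1, 9 were higher and 9 lower (36.0% each). Atf5, a factor induced together with ATF4 signalling, rose, at 28.2 TPM in parental cells, 62.95 in e1 and 138 in e2 (1.13 ± 0.06, adjusted p = 8.05e-08 and 2.24 ± 0.06, adjusted p = 7.65e-10). Atf3, an immediate stress factor, fell, at 17.1 TPM in parental cells, 3.83 in e1 and 3.25 in e2 (-1.93 ± 0.15, adjusted p = 1.84e-06 in e1). Stc2 (stanniocalcin 2) fell most, at 30.7 TPM in parental cells, 1.27 in e1 and 4.998 in e2 (-3.82 ± 0.13, adjusted p = 7.17e-09 in e1; -2.41 ± 0.13, adjusted p = 1.64e-07 in e2). Cebpb, a partner of ATF4 on the element shown above, was higher in e2 than in e1, at 23.6 TPM in parental cells, 24.6 in e1 and 67.6 in e2 (1.43 ± 0.12, adjusted p = 5.05e-06), while its relative Cebpg was lower (-0.98 ± 0.07, adjusted p = 1.37e-06). Slc7a5, a large neutral amino acid transporter, was also lower in e2 than in e1, at 136 TPM in parental cells, 181 in e1 and 85.3 in e2. The e1 library 1 shift touched this list as well: that library was above both other e1 libraries for 19 of 25 genes (76.0%), against 38.5% of all tested genes. Without it, 15 of 25 fell in e1, where 36.9% of all tested genes fell.

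Folding and export lists came next. Oxidative folding genes rose in 9 of 14 cases in e1 and 10 of 14 in e2 (64.3 and 71.4%), with 2 and 3 falls (14.3 and 21.4%). Dnajc10 (ERdj5), a disulfide reductase, was at 74.96 TPM in parental cells, 74.05 in e1 and 152 in e2 (e2, 1.01 ± 0.05, adjusted p = 5.49e-08), Ero1l, the oxidase that recharges disulfide isomerases, at 19.99 TPM in parental cells, 39.1 in e1 and 23.03 in e2 (e1, 0.93 ± 0.11, adjusted p = 3.31e-05), and Pdia5 at 20.5 TPM in parental cells, 22.6 in e1 and 7.11 in e2 (e2, -1.40 ± 0.10, adjusted p = 1.25e-06). Of 9 glycoprotein quality control genes, 3 rose and 4 fell in e1 (33.3 and 44.4%), and 6 rose and 1 fell in e2 (66.7 and 11.1%). In e2 against e1, 5 of the 9 were higher and 1 lower (55.6 and 11.1%). Uggt1, the glucosyltransferase that senses folding of glycoproteins, fell in e1 and rose in e2, at 23.8 TPM in parental cells, 18.3 in e1 and 38.7 in e2 (1.05 ± 0.11, adjusted p = 1.51e-05 in e2 against e1). Mogs was lower in e2 than in e1, at 27.5 TPM in parental cells, 68.4 in e1 and 34.7 in e2 (-0.94 ± 0.13, adjusted p = 0.000119). Of 16 translocon and signal peptidase genes, 8 rose and 4 fell in e1 (50 and 25%), and 9 rose and 2 fell in e2 (56.2 and 12.5%). In e2 against e1, 4 of the 16 were higher and 5 lower (25.0 and 31.2%). Sec11c, a catalytic subunit of signal peptidase, was at 70.98 TPM in parental cells, 58.00 in e1 and 127 in e2 (1.13 ± 0.08, adjusted p = 2.25e-06 in e2 against e1). Ssr2 of the same list stood at 275, 296 and 280 TPM in the parental libraries. It was at 488, 412 and 391 TPM in e1 and lower in e2, at 287, 288 and 289 TPM.

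Further ERAD genes rose in 7 and fell in 3 of 15 cases in e1 (46.7 and 20.0%), and rose in 8 and fell in 2 in e2 (53.3 and 13.3%). In e2 against e1, 7 were higher and 4 lower (46.7 and 26.7%). Os9, a lectin of the HRD1 complex, rose in both lines, at 19.6 TPM in parental cells, 30.1 in e1 and 40.9 in e2 (e2, 1.02 ± 0.06, adjusted p = 2.96e-07), whereas Selenos, a partner of the derlins, fell in e1, at 73.7 TPM in parental cells, 39.00 in e1 and 77.1 in e2 (0.97 ± 0.06, adjusted p = 5.97e-07 in e2 against e1). Other ER stress signalling genes rose in 4 and fell in 5 of 17 cases in e1 (23.5 and 29.4%), against 10 and 3 in e2 (58.8 and 17.6%), and 10 were higher and 3 lower in e2 than in e1, where 40.6 and 29.7% of all tested genes were. Wfs1 (wolframin), an ER membrane protein, was lowest in e1, at 32.9 TPM in parental cells, 4.44 in e1 and 16.1 in e2 (-2.64 ± 0.07, adjusted p = 1.6e-09 in e1; -0.99 ± 0.07, adjusted p = 1.29e-06 in e2). Kdelr3, a receptor that retrieves escaped ER proteins, fell in e1 and was higher in e2 than in e1, at 18.9 TPM in parental cells, 8.93 in e1 and 22.8 in e2 (1.27 ± 0.10, adjusted p = 2.66e-06 between the lines). Creb3, an ER-tethered transcription factor, rose in both, at 35.8 TPM in parental cells, 65.96 in e1 and 78.96 in e2.

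Collagen folding enzymes gave the most one-sided counts of the 10 lists, with 13 of 15 higher and none lower in e1 (86.7%), and 15 of 15 higher in e2 (median changes 1.30 and 1.04). Fkbp10, an ER isomerase for procollagen, was at 0.997 TPM in parental cells, 102 in e1 and 54.6 in e2 (5.69 ± 0.07, adjusted p = 1.82e-11 in e1). Plod2, a collagen lysyl hydroxylase, was at 4.87 TPM in parental cells, 56.4 in e1 and 28.5 in e2 (3.29 ± 0.05, adjusted p = 7.56e-11 in e1). Of the mesenchymal markers given above, Col1a1 (0.432 TPM in parental cells) and Col1a2 were likewise higher in mean TPM in e1 than in e2, whereas Dcn, Pdpn, Thy1 and Pdgfra were higher in e2 and Lum was at 0. The part of these markers in the list's counts was not tested. Between the lines, 4 of the 15 enzymes were higher and 7 lower in e2 (26.7 and 46.7%).

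Chaperones outside the ER were counted too. Of 10 cytosolic heat shock genes, 3 rose and 2 fell in e1 (30 and 20%), and 3 rose and 5 fell in e2 (30 and 50%). In e2 against e1, 2 were higher and 5 lower (20 and 50%). Hsp90aa1, the inducible cytosolic HSP90, was at 953 TPM in parental cells, 1569 in e1 and 768 in e2 (-1.02 ± 0.09, adjusted p = 6.94e-06 in e2 against e1), and its constitutive relative Hsp90ab1 fell in both lines, at 2948 TPM in parental cells, 2321 in e1 and 1698 in e2. Of 7 mitochondrial chaperones and proteases, 1 rose and 4 fell in e1 (14.3 and 57.1%), and 1 rose and 6 fell in e2 (14.3 and 85.7%). In e2 against e1, 2 were higher and 3 lower (28.6 and 42.9%). Hspe1, the small partner of the mitochondrial chaperonin, was at 909 TPM in parental cells, 556 in e1 and 651 in e2 (e1, -0.71 ± 0.08, adjusted p = 2.79e-05), and Clpp, a matrix protease, at 91.03 TPM in parental cells, 86.2 in e1 and 49.8 in e2 (e2, -0.86 ± 0.06, adjusted p = 8.17e-07). Whether any list differed from the others was not tested.

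**Figure D5:**
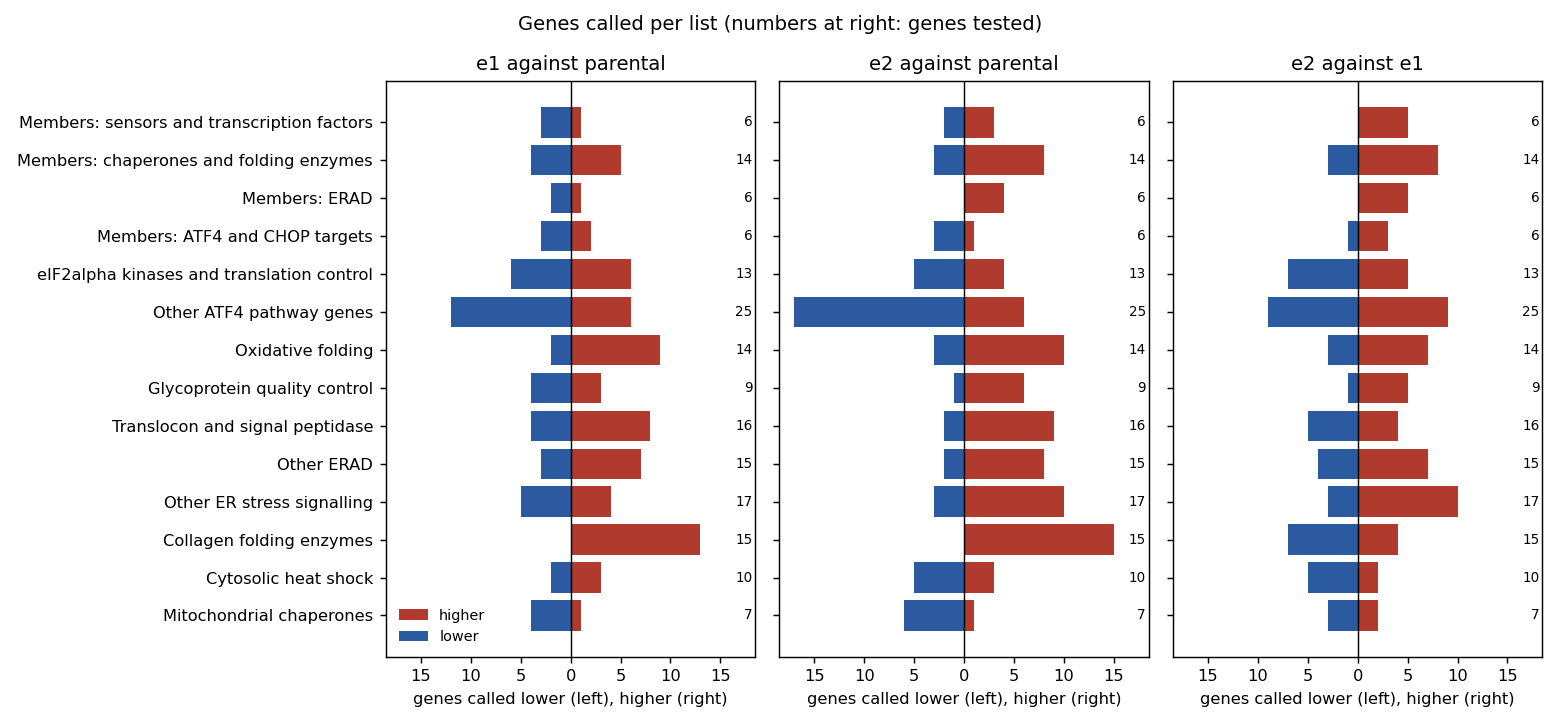
Number of genes called higher (red, to the right) and lower (blue, to the left) by limma in each comparison, for the 4 roles of the 33 genes and the 10 pathway lists; the number at the right edge is the genes tested. ERAD members have 4 and 5 genes to the right and none to the left in the comparisons of e2. Of the 4, Derl1 and Derl2 were not called with median-ratio scaling, where Herpud1 was called lower. Collagen folding enzymes have 13 and 15 to the right against parental. Among all tested genes, 35.7% rose and 34.9% fell in e1, and 40.8% rose and 32.7% fell in e2. Between the lines, 40.6% were higher and 29.7% lower in e2 than in e1.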

How the data were processed

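RNA was sequenced in 9 libraries, grouped by the sample titles. The authors deposited TPM per gene and library, and rlog values on a log2 scale, used here as an alternative. Per the submitters' processing notes, the authors used Salmon, DESeq2 and mm10. Versions, annotation and strandedness: not given in the sources used here. Because TPM keeps no depth, no counting interval can be given.

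On log2(TPM + 1), the 12769 of 24493 genes that reached 1 TPM in 3 or more libraries were fitted in limma 3.58.1 (R 4.3.3) with 3 group means over all 9 libraries and robust empirical Bayes with a trend in the variance. The two-sided p-values were adjusted by Benjamini-Hochberg and called under 0.05. The step was tested on simulated data. Members and lists were chosen with earlier results of these data known. All 33 members are named. From each pathway list up to 2 called genes with the largest fold per direction and comparison qualified, at a mean of 10 TPM or more in the higher group, and the text names some of them. Marker genes are named where a result turns on them.

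The 18 alternatives were each library left out, a replicate block, fits of 2 groups, a plain empirical Bayes fit, the rlog table, median-ratio scaling, the 10 highest genes removed, a pseudocount of 0.1, a 5 TPM filter and no filter. Promoters were matched by symbol to a RefSeq table (GRCm38.p6), and of 30 windows 27 ended in a GENCODE M21 transcript of the gene. Protein sequences were not used here.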

Additional observations from a re-analysis of the deposited data

Results flagged for a closer look

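The derived lines differed from each other in 25 of the 32 tested genes, by limma's direct contrast of e2 with e1 over all tested genes, 21 of them higher in e2. Over all 12769 tested genes, 70.3% differed in the same contrast, so a difference between the lines was common among genes at large. Of all tested genes, 40.6% were higher and 29.7% lower in e2. Median-ratio scaling and the rlog values each gave 17 members higher and 5 lower in e2. Among the genes named below, Dnajc3 and Manf each lost the call in 9 of 18 settings, Pdia4 in 7, Sel1l in 4 and Dnajb11 in 1. Given as e2 minus e1 on log2(TPM + 1), the sensors and transcription factors higher in e2 were Ern1 (0.83), Xbp1 (0.74), Atf6 (0.62), Atf6b (0.46) and Eif2ak3 (0.40). Chaperones and folding enzymes higher in e2 were Dnajb9 (1.04), Creld2 (0.83), Hsp90b1 (0.36), Hspa5 (0.34), Pdia3 (0.34), Manf (0.26), Dnajc3 (0.19) and Pdia4 (0.16), and those lower were Sdf2l1 (-0.51), Dnajb11 (-0.28) and Pdia6 (-0.21). All 5 called ERAD genes were higher in e2, namely Derl1 (0.69), Herpud1 (0.48), Edem1 (0.36), Derl2 (0.27) and Sel1l (0.20). Among ATF4 and CHOP targets, Ddit3 (1.44), Trib3 (0.66) and Chac1 (0.53) were higher and Asns (-0.75) lower. This contrast equals the difference between the effects of the lines against their shared parental libraries.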

How the results depend on the processing

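Of 1728 fold changes of single genes under the 18 alternatives, 1582 kept their direction and side of the threshold, 95 lost and 34 gained a call, and 17 changed sign, all of them for changes that were not called. The number of members lower in e2 than in parental was 8, where 4174 of all 12769 tested genes were lower. It was 5 with no filter on low values, where 4296 of 24493 genes were lower. Single libraries left out gave from 5 to 9 members. Of all tested genes, 3316 of 12281 were lower without parental library 2 (5 members). Without e1 library 1 (9 members), 4560 of 12659 were lower. With median-ratio scaling and in the rlog values, the sign changed for e2 against parental in Creld2 (-0.0414 and -0.0354), Eif2ak3 (-0.0380 and -0.0340) and Syvn1 (-0.0127 and -0.0108), and for e2 against e1 in Canx (-0.0635 and -0.0547). With single libraries left out, ranges that crossed 0 were, for e1 against parental, Hspa5 (-0.13 to 0.0172) and Atf6 (-0.11 to 0.21); for e2 against parental, Manf (-0.16 to 0.0127) and Syvn1 (-0.0244 to 0.14); and for e2 against e1, Atf4 (-0.19 to 0.0041), Hyou1 (-0.17 to 0.12) and Canx (-0.00767 to 0.11). Members that kept their call in all 18 numbered 6 of 9 rises and 10 of 12 falls in e1, 12 of 16 and 5 of 8 in e2, and 17 of 21 and 3 of 4 in e2 against e1. For the pairing check, libraries that carry the same number did not deviate together over the tested genes (correlations from -0.13 to 0.05). Whether such libraries shared a culture or batch is not given in the labels and was not tested. With the replicate block, members higher and lower were 8 and 12 in e1, 15 and 8 in e2, and 19 and 4 in e2 against e1. Of all 12769 tested genes, 4404 and 4338, 5081 and 4082, and 5085 and 3655 were called in that order. The cause of these shifts was not tested. TPM without depth sets no limit of detection.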
